A study of Mus musculus with 10 samples.

Results

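HEB summits were examined around 9 mouse genes of the extracellular matrix: the fibrillar collagen genes Col1a1, Col1a2 and Col3a1, the basement membrane collagen genes Col4a2 and Col18a1, the fibril-associated collagen gene Col16a1, the fibronectin gene Fn1, the fibulin gene Fbln2 and the procollagen-processing gene Pcolce. These are 9 of 21887 protein-coding genes on the assembled chromosomes. They were chosen by the positions and scores of summits in these same lists, and every summit within 300 kb of a gene body was then collected. That gave 8 of the 1489 summits found after Id4 knockdown and 7 of the 560 found with a non-targeting siRNA. The number of sites at them is a description and not a test.

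The sites come from HEB chromatin immunoprecipitation in Comma-Dβ cells, an established mouse mammary epithelial line, at passage 28. One arm was transfected with an siRNA pool against Id4 (siID4) and the other with a non-targeting control pool (siNT), both at 20 nM, and chromatin was taken 48 h after transfection. The labels list 3 HEB libraries per siRNA and 4 input libraries that serve both arms, with no siRNA and no antibody. Each siRNA is represented by 1 deposited list of summits, the single bases at which peaks are highest, so no value here has a replicate error, and read depth is unknown. The lists carry no expression values, so neither the knockdown of Id4 nor the mammary identity of the cells could be checked in them.

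HEB, encoded by Tcf12, is a basic helix-loop-helix protein of the E-protein class that binds E-boxes, the sequence CANNTG, as a dimer. ID4 has a helix-loop-helix domain but no DNA-binding region, and dimers that contain an ID protein do not bind DNA. Collagens are secreted as triple-helical procollagens, trimmed and assembled into fibrils or networks, while fibronectin and fibulins connect these to cells and to other fibres. In the mammary gland, epithelial ducts rest on a basement membrane that separates them from a stroma rich in fibrillar collagen.

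Of the 4 sites found in both lists, a pair fell inside annotated promoter windows, and the sequences of these windows are shown because they place the summits among E-boxes. Both are RefSeq windows on GRCm38.p6, the assembly behind mm10, running from 250 bases before to 50 bases after a transcript start and written along the strand of the transcript. The first is the Pcolce promoter, chr5:137611355-137611654 on the minus strand. The second is the promoter of Gm8883, a long non-coding RNA gene, chr1:71887862-71888161 on the plus strand, and it holds the site whose nearest protein-coding gene is Fn1. Capitals mark every E-box.
Pcolce: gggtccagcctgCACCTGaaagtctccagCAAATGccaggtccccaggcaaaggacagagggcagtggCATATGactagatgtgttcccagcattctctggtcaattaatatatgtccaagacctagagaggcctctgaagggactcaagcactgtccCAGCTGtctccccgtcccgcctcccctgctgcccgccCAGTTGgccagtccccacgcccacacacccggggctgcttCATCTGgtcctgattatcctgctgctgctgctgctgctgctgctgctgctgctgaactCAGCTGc
Gm8883: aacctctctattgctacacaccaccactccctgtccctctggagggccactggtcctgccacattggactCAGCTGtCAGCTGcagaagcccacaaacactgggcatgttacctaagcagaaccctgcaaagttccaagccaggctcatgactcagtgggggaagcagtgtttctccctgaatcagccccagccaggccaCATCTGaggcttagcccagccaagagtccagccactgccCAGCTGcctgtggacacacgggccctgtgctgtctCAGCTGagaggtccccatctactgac

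The Pcolce window held 7 E-boxes and the Gm8883 window 5. E-boxes were common, with at least 1 in 72.3% of the 32851 promoter windows of the table and a median of 1 per window. Windows with at least 7 E-boxes made up 0.177% of them (58 windows), and windows with at least 5 made up 2.10% (689 windows). CAGCTG, the E-box form with the palindromic core GC, occurred 2 times at Pcolce and 4 times at Gm8883. At least 2 copies were found in 1.90% of windows, and at least 4 in 9 of the 32851 windows (0.0274%). Of the other forms counted, CATCTG occurred 1 time in each window and is present in 17.2% of all windows. CACCTG and CATATG, present in 20.2% and 3.91%, occurred 1 time each at Pcolce and 0 times at Gm8883. CACGTG, present in 7.15%, was in neither.

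The Pcolce summits sat at the transcript start itself. Counting from base 1 at the 5′ end of the printed window, the siID4 summit fell on base 254, 3 bp after the annotated start, and the siNT summit on base 286, 35 bp after it. CATCTG at bases 236 to 241 lay 13 bp from the siID4 summit, and CAGCTG at bases 294 to 299 lay 8 bp from the siNT summit. Both summits also fell within an uninterrupted run of 12 CTG units that spans bases 254 to 289. The table held 4 promoter windows with a CTG run of that length on the transcript strand, and 6 when CAG was counted as well. Pcolce was the only one of these 6 with a summit in its window in either list. For the other 5 the nearest summit of either list was at least 256.7 kb from the transcript start. Over all 32851 windows only 10 held an siID4 summit and 9 an siNT summit. Within 300 kb, 22.0% and 12.3% of all protein-coding genes had one. Nothing is therefore read from the lack of summits at the other 5. Mappability of the repeat was not analysed here, and its part in the Pcolce site was not tested.

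At Gm8883 the summits lay before the transcript start, the siID4 summit by 114 bp on base 137 and the siNT summit by 24 bp on base 227. The closest E-box to the siNT summit was CAGCTG at bases 240 to 245, 13 bp away. For the siID4 summit it was CAGCTG at bases 78 to 83, 54 bp away. TGANTCA, a looser pattern than the AP-1 site with C or G at the middle base, matched TGACTCA at bases 149 to 155 and TGAATCA at bases 179 to 185. Only the TGACTCA match has C or G there. These matches lay 12 bp and 42 bp from the siID4 summit, and 72 bp and 42 bp from the siNT summit. The looser pattern TGANTCA was present in 7.81% of windows and at least 2 times in 0.460%. Of the other motifs searched on both strands, GGGCGG occurred 1 time at Pcolce, at bases 191 to 196, where its last base overlaps the E-box CAGTTG, and is present in 35.7% of windows. CCAAT occurred 1 time at Gm8883, at bases 63 to 67, and is present in 37.4% of windows. GGAATG and TGTGGT, present in 14.7% and 16.8% of windows, were in neither sequence. A motif match is a description of the letters and not evidence of occupancy.

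Few promoter windows held a summit, but 1489 siID4 and 560 siNT summits could fill only a small part of them. The counts thus do not show whether summits were scarce at promoters. A summit fell inside 10 of the 32851 windows in the siID4 list and inside 9 in the siNT list, and 7 windows held a summit of each. Apart from Pcolce and Gm8883, these 7 were the windows of H3f3b, H1f2, H1f3, H1f5 and Lrpprc, named after their values were seen. The last 5 contained 0 or 1 E-box each and no CAGCTG. At least 1 E-box was present in 7 of the 10 windows with an siID4 summit and 6 of the 9 with an siNT summit, beside 72.3% of all windows. These windows are few, 7 of them are in both lists, and most windows hold an E-box anyway. Nothing is therefore read from the likeness of these shares.

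**Figure D1:**
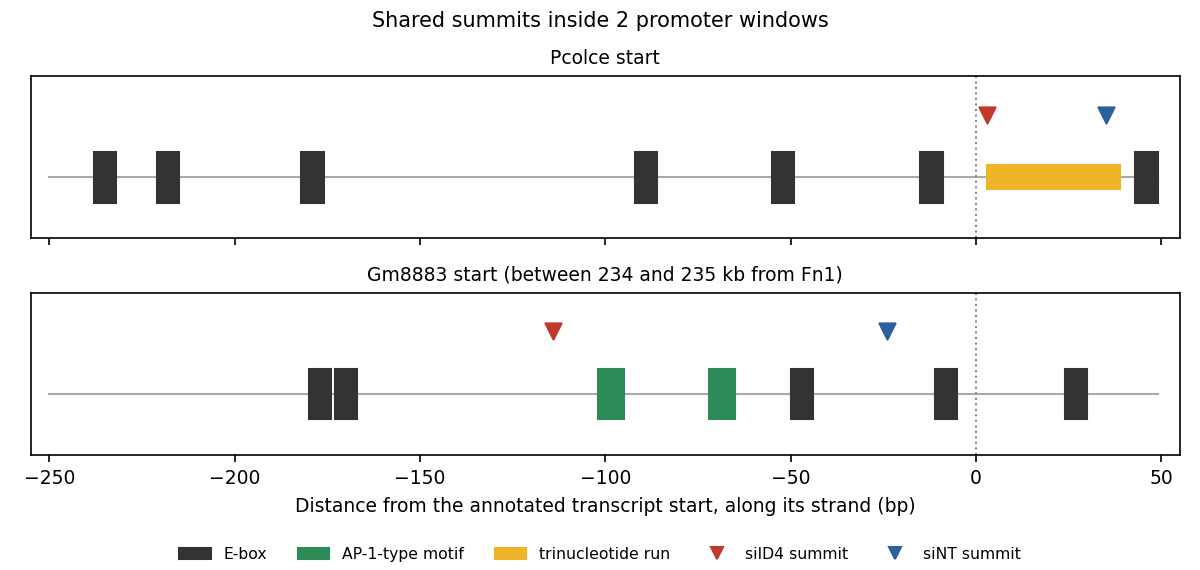
Position of the shared summits (triangles, red siID4 and blue siNT), E-boxes (black), TGANTCA matches (green) and the CTG run (yellow) in the Pcolce and Gm8883 promoter windows, in bp from the annotated transcript start along its strand. At Pcolce both summits lie within the CTG run just after the start, and at Gm8883 both lie before the start, 90 bp apart.

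The fibrillar collagen genes had 1 shared site, 1 siID4-only site and 1 siNT-only site. Sites with a summit of the other list no more than 200 bp away are termed shared, and the rest siID4-only or siNT-only. Each summit carries a score given by the authors, which ranks summits within a list but is not comparable between lists, so ranks out of 1489 (siID4) and 560 (siNT) are given. Percentiles are the percentage of the list's summits with a lower score. They depend on the other summits of a list, so they too are not compared between lists. Of all 290 shared siID4 summits, 261 had a higher percentile than their siNT summit, with a median difference of 10.8 points.

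Col3a1 encodes the chain of type III collagen, a fibrillar collagen of soft tissues, and lies at chr1:45311538-45349706. Its siID4 summit at position 45288146 lay 23392 bp before the gene on the plus strand, with a score of 23.5 (rank 92, percentile 93.8). The siNT summit at position 45288191 was 45 bp away, with a score of 19.0 (rank 93, percentile 83.2). No annotated gene of any class was nearer than Col3a1. The next collagen gene, Col5a2, which encodes a chain of the fibril-nucleating type V collagen, lay 86.2 kb from the siID4 summit.

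Col1a1 and Col1a2 encode the chains of type I collagen, the main fibrillar collagen of connective tissue, and neither had a shared site. Col1a1, at chr11:94936224-94953042, had 1 siNT summit at position 94929144, 7080 bp from its lower-coordinate end, with a score of 5.76 (rank 302, percentile 45.0). The summit fell inside the long non-coding RNA gene Gm46293, and the nearest siID4 summit was 2.73 Mb away. Col1a1 was the single member without an siID4 summit within 300 kb. Its position on chromosome 11 is outside the crowded distal part of that chromosome, and within 1 Mb of the gene there was no siID4 summit and 1 siNT summit.

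Col1a2, at chr6:4505618-4541543, had 1 siID4 summit at position 4457669, 47949 bp before the gene on the plus strand. It scored 7.09 (rank 413, percentile 71.4) and fell inside the long non-coding RNA gene Gm46948. The nearest siNT summit was 513.9 kb away, so no siNT summit lay within 300 kb of this gene. The genes for the chains of type I collagen thus had sites in opposite lists, each inside a non-coding RNA gene.

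The basement membrane collagen genes had siID4-only sites inside the gene body and no siNT summit within 300 kb. Col18a1 encodes the collagen XVIII chain, from whose end the fragment endostatin is released, and lies at chr10:77052178-77166530 on the minus strand. Its siID4 summit at position 77130181 scored 13.1 (rank 199, percentile 86.2), the highest of the siID4-only sites at these genes. RefSeq windows mark starts at positions 77166530 and 77113705, and the summit lay 16476 bp before the second of these along the strand. The nearest siNT summit was 2.80 Mb away.

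Col4a2, at chr8:11312805-11449287, encodes a chain of type IV collagen, the network collagen of basement membranes. Its siID4 summit at position 11411916 lay inside the gene, 99111 bp after the transcript start, and scored 4.34 (rank 713, percentile 50.2). The neighbouring gene Col4a1, which encodes the partner chain, was 99.0 kb from this summit. No siNT summit lay closer than 8.50 Mb.

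Col16a1, which encodes a fibril-associated collagen, lies at chr4:130047817-130099277. With 3 summits it had the most of the 9 genes, at 2 sites, as many sites as Fbln2. A shared site lay 26937 bp beyond the gene's higher-coordinate end, with an siID4 summit at position 130126214 (score 17.2, rank 135, percentile 90.9) and an siNT summit 19 bp away (score 17.5, rank 108, percentile 80.7). These summits fell inside Pef1, a calcium-binding protein gene at chr4:130107556-130128134, so Pef1 and not Col16a1 was the nearest gene. An additional siNT summit at position 130044322 scored 9.14 (rank 220, percentile 60.2). It lay 3518 bp before the Col16a1 transcript start, inside the non-coding RNA gene Gm12963, and was siNT-only with the nearest siID4 summit 81.9 kb away. The site closest to the Col16a1 start was therefore in the siNT list and the shared site was in the body of a neighbour.

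The glycoprotein genes differed in how far their sites lay from the gene. Fn1 encodes fibronectin, a dimeric protein that cells assemble into fibrils through integrins, and lies at chr1:71585473-71653280. Its siID4 summit at position 71887998 scored 24.2 (rank 90, percentile 94.0) and its siNT summit at position 71888088 scored 10.8 (rank 188, percentile 66.4). They lay 234718 bp and 234808 bp from the gene, the most distant shared site of the 9 genes, at the Gm8883 promoter described above. Gm8883, at chr1:71888112-71891204, was the nearest annotated gene, 114 bp from the siID4 and 24 bp from the siNT summit. Fn1 was the nearest protein-coding gene, so the link to it rests on distance alone.

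Fbln2 encodes fibulin-2, a glycoprotein of basement membranes and elastic fibres, and lies at chr6:91212460-91272540. Its siID4 summit at position 91259957 was inside the gene, 47193 bp after the transcript start, with a score of 5.93 (rank 514, percentile 65.4). The siNT summit within 300 kb was a different site at position 91417561, 145021 bp beyond the gene, with a score of 3.18 (rank 425, percentile 24.1). It lay 6208 bp from Wnt7a, a Wnt ligand gene, and 4845 bp from the non-coding RNA gene Gm30437, so it was not nearest to Fbln2. The siID4 and siNT sites were 157.6 kb apart.

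Pcolce encodes an enhancer of the enzymes that cleave the C-terminal propeptide from procollagen, and lies at chr5:137605105-137611522 on the minus strand. It had the highest score of the 9 genes in each list, 55.6 for the siID4 summit at position 137611401 (rank 31, percentile 97.9) and 35.9 for the siNT summit at position 137611369 (rank 35, percentile 93.8). The gene is the shortest of the 9, at 6418 bp, against 136.5 kb for Col4a2. The siID4 summit was 121 bp from the end of the gene record, which reaches past the transcript start used for the promoter window. No other site of these genes lay within 3 kb of a transcript start of the same gene among the 7 genes that have a promoter window. These 7 did not include Col1a1 and Fn1. The next closest site among the 7 was just beyond that limit, the siNT summit 3518 bp before the Col16a1 start.

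**Figure D2:**
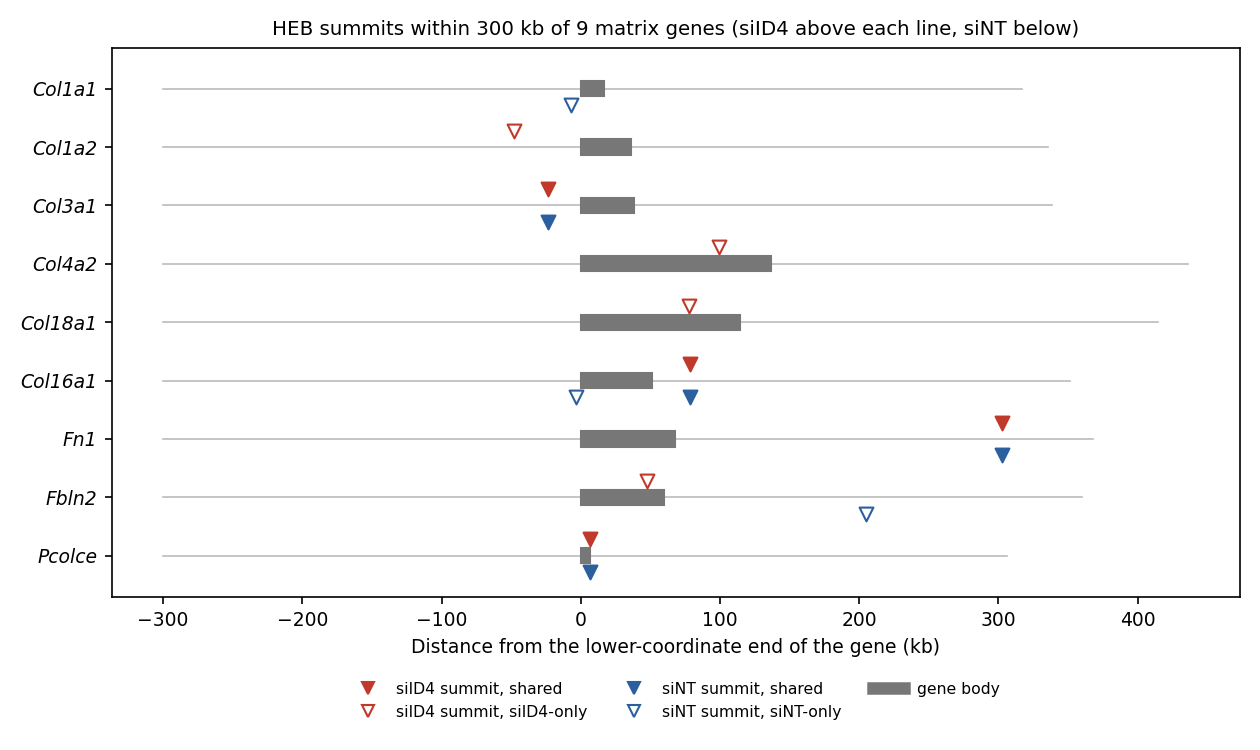
Summits within 300 kb of each gene, in kb from the lower-coordinate end of the gene, with gene bodies as grey bars, siID4 summits in red above the line and siNT summits in blue below it. Filled triangles are shared sites, at Col3a1, Col16a1, Fn1 and Pcolce, and open triangles are sites of 1 list.

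Counted by gene, siID4 summits lay within 300 kb of 8 of the 9 genes and siNT summits within 300 kb of 6, where 22.0% and 12.3% of all protein-coding genes did. Within 100 kb the counts were 7 and 4 genes, against 10.1% and 5.16% of all genes. Inside the gene body they were 4 genes (Col4a2, Col18a1, Fbln2 and Pcolce) and 1 gene (Pcolce), against 1.96% and 0.713%. A shared site lay within 300 kb of 4 genes, against 7.62% of all genes by either list. Nothing is read from these differences, because sites in these lists were how the genes were chosen. The genes were also longer than most, with 7 of the 9 above the 70th percentile of gene length, and the background was not matched on length.

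The farthest site inside the limit of 300 kb was the siNT summit at 234.8 kb from Fn1. The closest summits beyond it were siID4 summits 326.3 kb from Col3a1 (score 13.1) and 330.5 kb from Pcolce (score 6.73). Within 1 Mb of these genes there were between 0 and 4 siID4 and between 0 and 2 siNT summits. The median of the 9 genes was 1 in either list. Over all protein-coding genes the median was 0 and the upper quartile 1. The counts include the summits by which the 9 genes were chosen, so nothing is read from the difference.

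Of the 8 siID4 summits 4 were shared, or 50%, beside 19.5% of the whole siID4 list. Of the 7 siNT summits 4 were shared, or 57.1%, beside 51.8% of the whole siNT list. The genes were chosen by the positions and scores of these summits, so the shares and the percentiles that follow are descriptions, and nothing is read from their distance to the whole lists. Shared siID4 summits at these genes stood at percentiles of 90.9 to 97.9 and siID4-only summits at 50.2 to 86.2. The siNT summits stood at 66.4 to 93.8 for shared and 24.1 to 60.2 for siNT-only sites. In the whole lists the median percentiles were 87.8 for shared and 41.9 for siID4-only summits, and 70.3 for shared and 27.9 for siNT-only summits. The classes overlapped there. Within 50 ranks of the Col18a1 site 53.5% of siID4 summits were shared, and 64.1% of siNT summits near the Col16a1 start site.

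**Figure D3:**
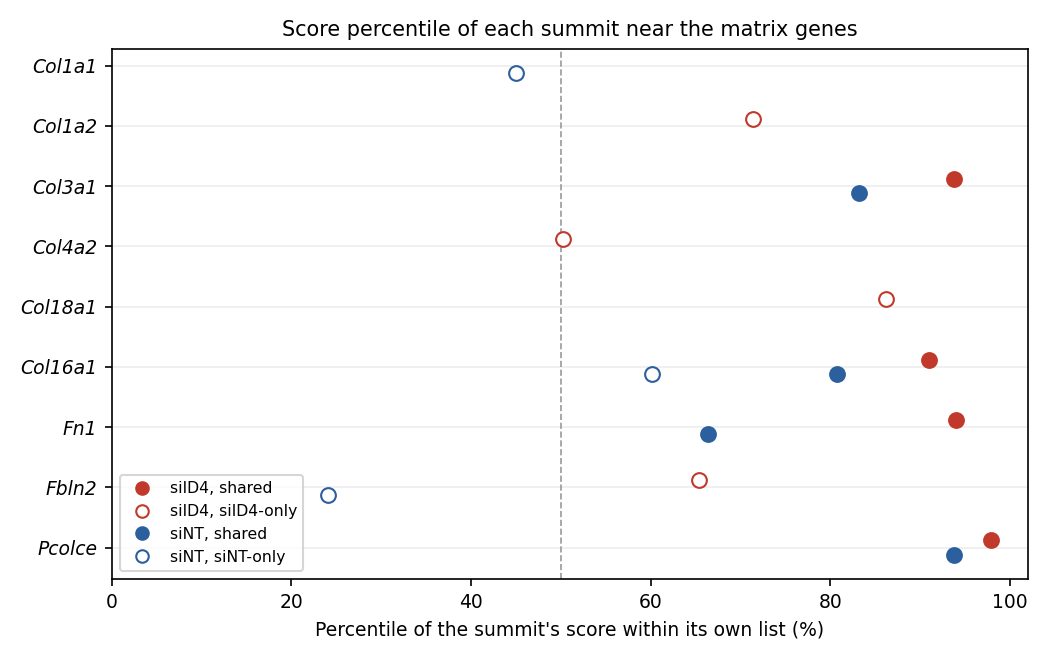
Percentile of each summit's score within its own list for the 9 genes, with siID4 in red, siNT in blue, shared sites filled and sites of 1 list open. The dashed line is the median of the list, and all 8 siID4 summits and 5 of the 7 siNT summits lie above it.

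Within the 4 shared sites, summit positions differed between the lists by 19 to 90 bp. The Fn1 summits were the farthest apart of the 4 pairs, at 90 bp, whereas shared summits over the whole list lay a median of 13 bp apart with an interquartile range of 3 to 33.8 bp. The pairs at Pcolce and Col16a1 were 32 bp and 19 bp apart, inside that range, and the pair at Col3a1 was outside it at 45 bp.

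How often a site of a given rank was shared differed widely, and this bears on the sites found in 1 list. Among siID4 summits within 50 ranks of the Col18a1 site, 53.5% had an siNT summit within 200 bp. For the Fbln2 site the share was 19.2%, for the Col1a2 site 13.6% and for the Col4a2 site 4.26%. The absence of an siNT summit at Col4a2, Col1a2 and Fbln2 is thus what most siID4 summits of their rank show, whereas at the rank of Col18a1 shared and siID4-only sites were about equally frequent. In the siNT list, 64.1% of summits near the rank of the Col16a1 start site were shared, 48.5% near that of the Col1a1 site and 17.3% near that of the site by Wnt7a. The shared sites at Pcolce, Col3a1, Fn1 and Col16a1 lay at siID4 ranks where 91.4%, 84.2%, 84.2% and 69.0% of summits were shared. A summit listed once does not show that HEB binding differed between the siRNAs, since the difference has no replicate check and depth is unknown.

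**Figure D4:**
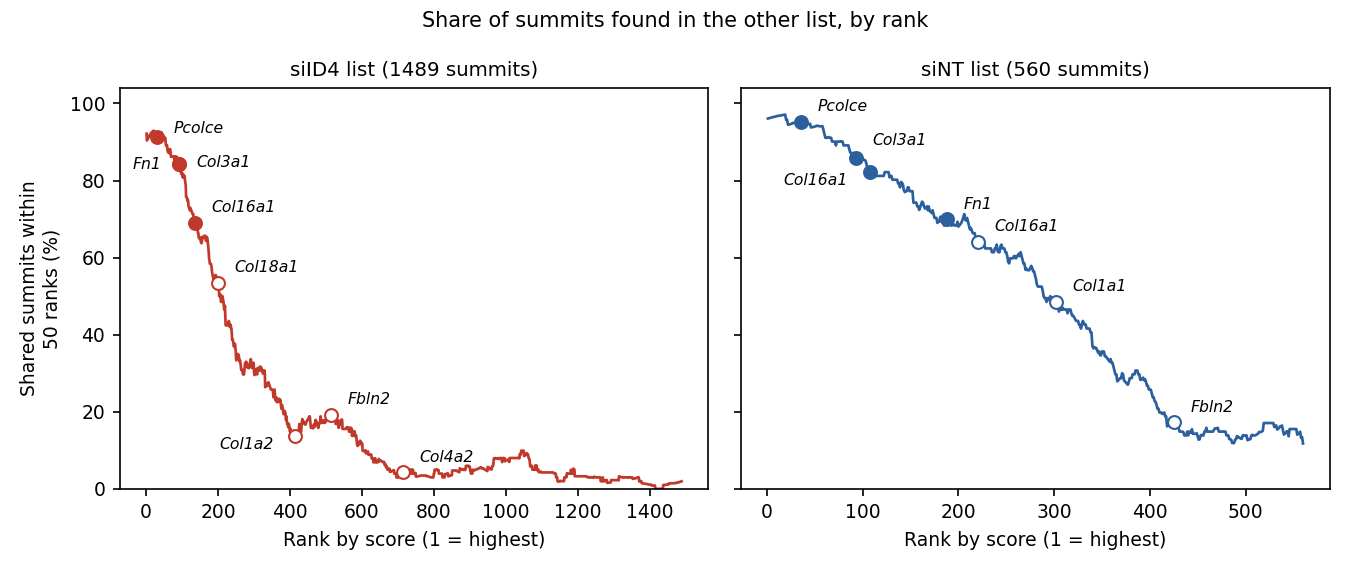
Percentage of summits that are shared among those within 50 ranks, by rank of the score, in the siID4 list (left) and the siNT list (right), with the sites at the matrix genes marked as filled (shared) or open (1 list) points. The open siID4 points run from 53.5% at Col18a1 down to 4.26% at Col4a2.

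The other matrix genes were counted over 9 classes with 125 genes, of which 116 are not among the 9 described above. Within 100 kb, siID4 summits were near 13 of the 116 (11.2%) and siNT summits near 9 (7.76%), beside 10.1% and 5.16% of all protein-coding genes. The counts include Col5a2 and Col4a1, linked only through sites of the 9 genes, so nothing is read from the differences. Among the other fibrillar collagen genes 2 of 8 had a summit in each list: Col5a2, through the Col3a1 site, and Col5a1, through a shared site 72.9 kb away with an siID4 score of 21.4 that is nearest to Rxra, a retinoid receptor gene. Of the other network and basement membrane collagen genes 2 of 9 were near siID4 summits, Col4a1 through the Col4a2 site and Col4a6 through a site nearest to Atg4a. The siID4 summit by Col4a6 (score 5.60) and its siNT summit (score 12.9) were 857 bp apart and so not shared.

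In the class of fibril-associated, beaded-filament and transmembrane collagens, Col14a1 contained 2 siID4-only summits (scores 6.23 and 3.62), and Col6a3 had an siNT-only summit 16.5 kb away (score 10.7). Of the other fibre glycoprotein genes, Efemp2, a fibulin family gene, was near a shared site at 90.0 kb (siID4 score 6.13) that is nearest to Ap5b1. Fbn1, the fibrillin-1 gene, had an siID4-only summit 42.9 kb away (score 7.09), which lay 496 bp from Cep152. Thbs2, a thrombospondin gene, had an siID4-only summit 54.6 kb away (score 2.12). Mfap2, a microfibril gene, contained an siNT-only summit (score 8.81). Prelp, a small leucine-rich proteoglycan gene, had an siID4-only summit 9.3 kb away (score 7.59) and, farther off, a shared site 17.0 kb away (siID4 score 24.2), both nearest to Optc.

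Among the other genes for collagen processing, folding and crosslinking, siID4 summits were near 1 of 18 and siNT summits near 0 of 18. That siID4 summit was 91.7 kb from Plod1, a lysyl hydroxylase gene, was nearest to Zfp933, and scored 1.86 (rank 1364). Of the 12 matrix protease and inhibitor genes, Timp2, a metalloproteinase inhibitor gene, had a shared site 9.8 kb away (siID4 score 22.8) among 8 siID4 summits. Mmp2, a gelatinase gene, had an siID4-only summit 92.7 kb away (score 2.48), which was nearest to Irx6. Timp2 and the integrin gene Itgb4, the 1 of 16 receptor genes with a summit, lie in the crowded distal part of chromosome 11. The strongest site by Itgb4 fell inside H3f3b, 16.3 kb away (siID4 score 286). None of the 13 laminin, nidogen, perlecan and agrin genes had a summit within 100 kb in either list.

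**Figure D5:**
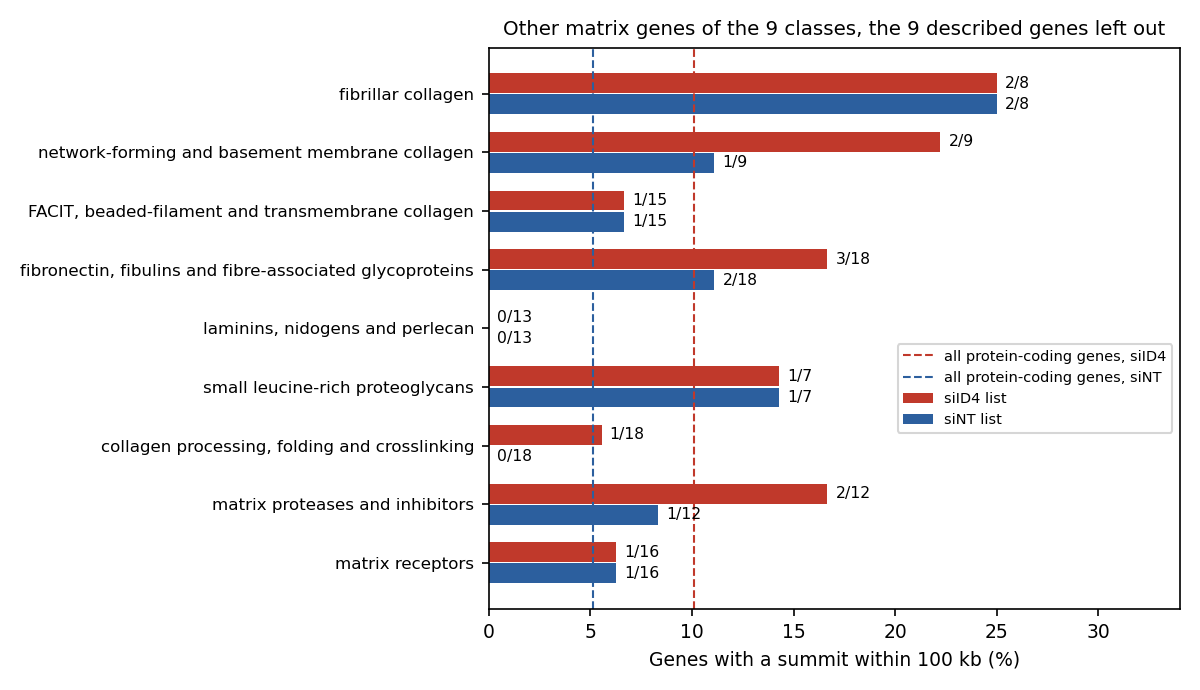
Percentage of genes with a summit within 100 kb in each of 9 classes of matrix genes, leaving out the 9 genes described above, with siID4 in red, siNT in blue and the number of genes beside each bar. Dashed lines mark all protein-coding genes, 10.1% for siID4 and 5.16% for siNT.

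The genes with a pattern most like that of the members were sought by the percentiles of their best siID4 and siNT summits within 100 kb, among the 863 protein-coding genes that had both. The likeness rests on the 2 lists alone. For Pcolce, 10 other genes, among them Gigyf1, Gnb2 and Actl6b, had exactly its values because they lie within 100 kb of the same summits. Likewise 4 genes shared the Col16a1 site, among them Pef1, Hcrtr1 and Tinagl1, and Col5a2 shared that of Col3a1. After Col5a2 the closest to Col3a1 were genes on chromosome 15 with equal values, among them Eppk1, BC024139 and Plec, at a distance of 0.490 percentile points.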

How the data were processed

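HEB ChIP-seq summits from Comma-Dβ cells were read from 2 lists deposited by the authors, 1 per siRNA. The score of each summit is the authors' own, from the deposited lists; its lowest values, 1.32 (siNT) and 1.31 (siID4), lie just above 1.30, −log10 of 0.05, but its definition, the aligner, peak caller, filters and pooling of the 3 libraries were not given in the sources used here. Per the submitters' processing notes, the genome build was mm10 and the tools included SAMtools. A score depends on its own list's depth, which is unknown.

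Positions were compared with RefSeq gene bodies of GRCm38.p6 on 21 chromosomes, and 7 of the 9 genes matched RefSeq promoter windows. Motifs were searched on both strands. All 125 matrix genes matched. The genes, lists and motifs were chosen with earlier results of these data known. No genome was used, so the planned E-box counts around each summit were replaced by promoter windows. The CTG run, sharing by rank and equal scores were examined after the values were seen. Named genes were the 9 members, the nearest genes of their summits, up to 4 genes per matrix class by score, and the 3 genes most like each member with a shared site within 100 kb. No test was made. The linking code was tested on simulated data. Python 3.11.15, pandas 2.3.3 and SciPy 1.17.1 were used.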

Additional observations from a re-analysis of the deposited data

How the results depend on the processing

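The counts at the 9 genes stayed within 1.5 times of those reported under every planned setting: links of 50, 100 or 300 kb, sharing within 100, 500 or 1000 bp, a score of at least 5 or above the list's median, summits within 500 bp merged, and, for genes, the nearest protein-coding gene only. Of 46 recomputed counts 41 did so. The other 5 concern the 116 further matrix genes and follow from the link itself. With siID4 summits, 6 of the 116 genes were linked within 50 kb, 24 of 116 within 300 kb and 3 of 116 by nearest gene only. The shares of all protein-coding genes at these settings were 6.50%, 22.0% and 3.48%. With siNT summits, 18 of 116 were linked within 300 kb and 3 of 116 by nearest gene only, where 12.3% and 1.54% of all protein-coding genes were. The planned E-box counts in windows of several widths around summits were not run, as no genome sequence was used. No paired analysis was possible because each siRNA has 1 list that carries no replicate numbers, and leaving out a replicate was not possible for the same reason. Depth is unknown, which limits what the absence of a site from a list can show.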

Other observations

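Many summits of a list carried exactly the same score. In the siID4 list 52.6% of summits shared their score with at least 1 other, and in the siNT list 28.9%. The score of the Col4a2 site was found at 29 siID4 summits, of which 1 was shared with the siNT list, that of the Col1a2 site at 14 (2 shared), and that of the Col18a1 site at 7 (4 shared). The score of the Col1a1 site was found at 7 siNT summits (3 shared). Both Pcolce summits, both Fn1 summits and both summits of the shared site by Col16a1 had scores found at no other summit of their list.

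Leaving out genes that share a member's own summits, a choice made after the values were seen, the gene closest to Pcolce in both percentiles was Asap1 on chromosome 15, at 0.447 percentile points, and the gene closest to Col16a1 was Gm15319 on chromosome 8, at 0.191 points.

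Promoter windows of the other members were compared with Pcolce in the same way. The Col3a1 window held 4 E-boxes, a number reached by 6.49% of windows, the Col16a1 window held 2 and the Fbln2 window 1. The windows of Col1a2 and Col4a2 and both windows of Col18a1 held none. No summit fell inside any of these windows in either list.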
